A study of Capsicum chinense with 22 samples.

Results

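The translation machinery of the *Capsicum chinense* pericarp was described through 118 genes of the 16922 in the table, taken by name: every gene called a tRNA ligase, a translation initiation factor, or an elongation factor 1 or 2, leaving out transcription elongation factors. They comprised 51 tRNA ligases, 56 initiation factors and 11 elongation factors. RNA was sequenced from the pericarp, the fruit wall, of 4 accessions at 20 days after anthesis (DAA), when fruits are immature, and at 60 DAA, when they are ripe. Hab (Habanero, a commercial cultivar) is pungent with red ripe fruit, Biq (Biquinho, a commercial cultivar) is non-pungent and red, A101 (a germplasm accession) is pungent and yellow, and A18 (a germplasm accession) is non-pungent and yellow. There were 3 libraries in each accession and stage, except 2 for A18 at 20 DAA and 2 for Hab at 60 DAA, 22 in all. The labels name no treatment, and each library came from several fruits of a single plant. Each color and pungency class is therefore represented by 2 accessions that differ in much else.

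In plants, protein is made by cytosolic ribosomes and by bacterial-type ribosomes in chloroplasts and mitochondria. Initiation factors place the ribosome and the initiator tRNA on the start codon, elongation factors 1 (EF1) and 2 (EF2) bring in charged tRNA and move the ribosome along, and tRNA ligases (aminoacyl-tRNA synthetases) load each tRNA with its amino acid. Ripening pericarp converts chloroplasts into chromoplasts, so genes for organellar and cytosolic translation need not follow the same course.

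Values are variance-stabilized read counts on a scale close to log2, centered for each gene on 0, so a difference of 1 is close to a doubling and levels cannot be compared between genes. A gene is said to rise or fall where the adjusted p of limma's test across all 16922 genes was below 0.05 and the difference was at least 1 on the log2 scale. "Shifted" is used where the adjusted p passed at any size. As a check of the stage labels, 21 of 25 chlorophyll a-b binding genes fell (median difference -2.56) and the gene of capsanthin/capsorubin synthase, which makes red carotenoids, rose by 11.8. Replicates were close (median SD over the 118 genes between 0.059 in Hab at 60 DAA and 0.158 in Hab at 20 DAA). Gene copies with near-identical sequence may have shared reads in quantification, so values of the EF1-alpha, eIF5A and EF2 copies, and of the consecutively numbered eIF2 alpha pair, are uncertain to that extent.

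The first question was how the translation genes differed between immature and ripe pericarp, averaged over the 4 accessions. Falls were few, while rises were near the share of all genes. By the same rule 14 genes rose (11.9%, all genes 13.2%) and 6 fell (5.08%, all genes 21.5%). Counted at any size, and so including these, 67 of 118 shifted up and 33 shifted down. All genes gave 39.9% up and 46.8% down. The median difference of the 118 genes was 0.26, and that of all genes was -0.08, while the median size of the difference, regardless of direction, was 0.44 for the 118 genes and 0.66 for all genes. In 22 genes every 60 DAA library was above every 20 DAA library, and in 8 every one was below, where 15.7% and 21.6% of all genes did so. Of the 20 genes that rose or fell, 13 of the 14 rises and 5 of the 6 falls had no overlap between the stages. These genes were picked for a large difference in the same libraries, so this is no separate evidence. The share without overlap among all genes that rose or fell was not counted. Under quantile normalization, which moved the median of all genes from -0.08 to 0.05, 20 of the 118 genes rose and 1 fell.

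**Figure D1:**
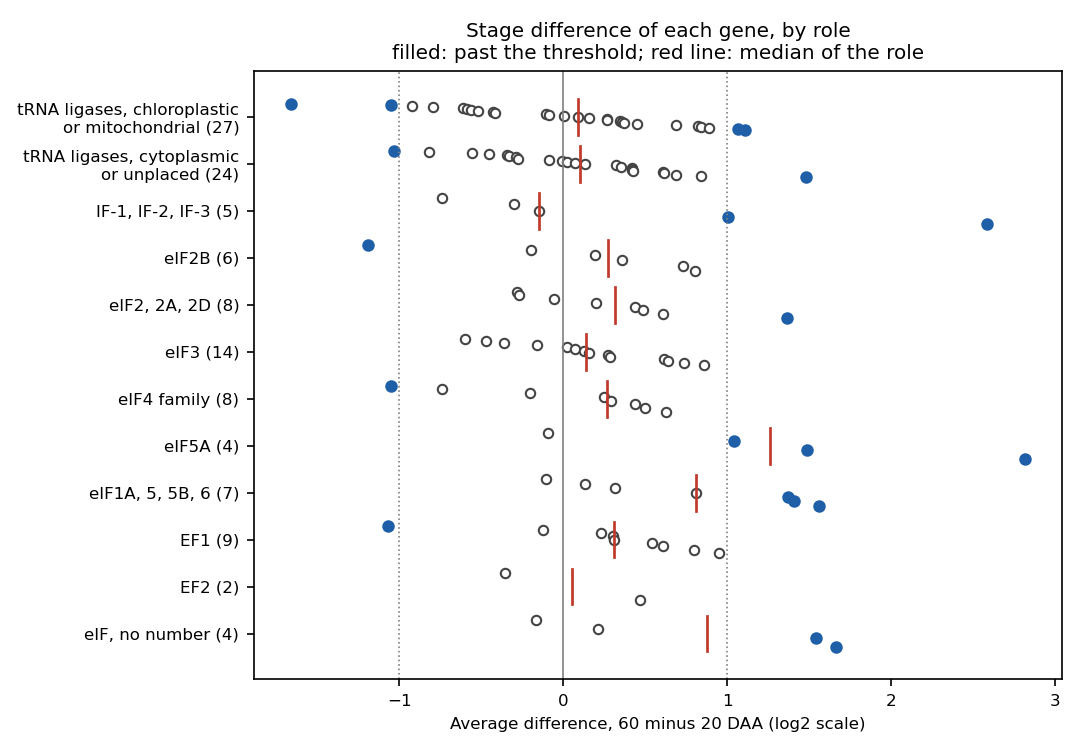
Average difference between 60 and 20 DAA (x axis, log2 scale) of each of the 118 genes, by role, with the number of genes in parentheses; filled points are past the threshold and the red line is the median of the role. The eIF5A genes had the highest median (1.26), and no eIF3 subunit was past the dotted lines at -1 and 1.

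The eIF5A genes carried the largest rise. eIF5A, a small factor that helps ribosomes past difficult stretches such as runs of proline, is encoded by 4 of the genes, and 3 of them rose. For eIF5A-5 (LOC107862276), the 20 DAA libraries ran from -1.98 to -1.01 (median -1.27) and the 60 DAA libraries from 0.892 to 1.96 (median 1.33). The stages were more than 1 unit apart at their closest in this gene. Its average difference was 2.82 ± 0.078 (SE, limma adjusted p = 2.42e-17), and it was the largest riser in Hab (3.33) and Biq (3.10), and rose by 2.60 in A18 and 2.24 in A101. The eIF5A-4 gene LOC107840872 ran from -1.28 to -0.143 at 20 DAA and from 0.302 to 1.12 at 60 DAA, a difference of 1.48 ± 0.063 (adjusted p = 2.08e-14). eIF5A-2 (LOC107877613) rose by 1.04 ± 0.054 (adjusted p = 5.33e-13), with libraries from -1.03 to -0.058 before and from 0.238 to 0.963 after. The remaining gene, LOC107876569, is also named eIF5A-4 and differed by -0.09 (adjusted p = 0.17). The copies of eIF5A thus spanned 2.91 units in their stage difference.

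Factors of the bacterial type, which start translation in chloroplasts and mitochondria, split by kind. The IF-3-like gene LOC107877566, whose product in bacteria keeps ribosomal subunits apart before initiation, lay between -1.67 and -0.993 in the 20 DAA libraries (median -1.25) and between 0.889 and 1.61 in the 60 DAA libraries (median 1.304). It rose by 2.58 ± 0.070 (adjusted p = 1.91e-17). By accession the rises were 2.81 (A18), 2.54 (Biq), 2.50 (Hab) and 2.47 (A101), and the gene was the largest riser in both yellow accessions. IF-1 (LOC107851241), which assists the other factors, rose by 1.00 ± 0.065 on average (adjusted p = 1.8e-11) but with 0.09 in A18, and its value fell short of 1 when any of 8 libraries was left out (at 20 DAA the b library of A18 or the c library of A101, Hab or Biq, and at 60 DAA the a library of A18, A101 or Hab or the c library of Biq, giving 0.969 to 1.00). The 3 IF-2 genes, which carry the initiator tRNA in bacteria, did not rise: LOC107876870 was lower by 0.74 and LOC107878523 by 0.30, both past the adjusted p alone, and LOC107864391 differed by -0.15 (adjusted p = 0.0554). The shift of LOC107878523 was lost under quantile normalization (-0.04, adjusted p = 0.637).

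Among the cytosolic factors eIF1A, eIF2, eIF5, eIF5B and eIF6, both eIF1A genes, eIF6-2 and 1 of 3 eIF2 gamma genes rose. eIF1A promotes scanning of the messenger for the start codon; its genes LOC107839243 (1.56 ± 0.073, adjusted p = 1.03e-13) and LOC107843509 (1.37 ± 0.083, adjusted p = 5.59e-12) both rose, and in neither did the stages overlap. In LOC107839243 the 20 DAA libraries reached at most -0.278 and the 60 DAA libraries began at 0.346. eIF6-2 (LOC107858476), a factor that holds back the large ribosomal subunit and serves in its biogenesis, rose by 1.41 ± 0.069 (adjusted p = 1.85e-13), from a range of -0.849 to -0.389 to one of 0.048 to 1.16. The eIF5-like genes, whose product in yeast stimulates GTP hydrolysis by eIF2, differed by 0.81, 0.31 and 0.13, and the last missed the adjusted p (0.0667). eIF5B, which joins the subunits, differed by -0.10 (adjusted p = 0.127).

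eIF2 brings the initiator tRNA as a complex of alpha, beta and gamma subunits, and eIF2B recharges it with GTP. The eIF2 gamma gene LOC107880050 lay between -1.02 and -0.102 at 20 DAA and between 0.142 and 1.35 at 60 DAA, and rose by 1.363 ± 0.065 (adjusted p = 1.22e-13). The other gamma genes differed by 0.61 (LOC107850385) and -0.27 (LOC107872972), the beta gene by 0.49, and the alpha genes LOC107864197 and LOC107864198 by -0.28 and -0.06. The shift of LOC107872972 was lost under quantile normalization (-0.11, adjusted p = 0.221), and LOC107864198 changed sign under both other scalings. For eIF2B, the beta gene LOC107864213 fell by 1.19 ± 0.066 (adjusted p = 1.63e-12), from 0.121 to 1.00 at 20 DAA to -0.857 to -0.195 at 60 DAA, without overlap. Under quantile normalization it lay just inside the size threshold (-0.9998). The second eIF2B beta gene, LOC107850423, was higher by 0.36 (adjusted p = 4.93e-07), and the gamma and alpha subunits were higher by 0.80 and 0.73. Genes of the same eIF2B subunit thus moved in opposite directions.

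eIF3, the large scaffold that recruits the small ribosomal subunit, had none of its 14 genes rise or fall on average, with differences from -0.60 to 0.86. The largest difference was that of subunit H (LOC107864428), at 0.86 ± 0.060 (adjusted p = 5.81e-11), with 20 DAA libraries from -0.702 to -0.105 and 60 DAA libraries from 0.029 to 1.13, and the average reached 1.00 under quantile normalization. In Hab alone of the accessions eIF3 genes rose: subunit H by 1.27 ± 0.13 (adjusted p = 2.36e-08) and subunit J by 1.12 ± 0.14 (adjusted p = 6.53e-07). In all 7 eIF3 genes shifted up and 4 shifted down, where 39.9% and 46.8% of all genes did so. Subunits M (0.74), J (0.64), E (0.61), F (0.28) and K (0.27) were among the higher, and B (-0.60), L (-0.47) and A (-0.36) among the lower, while the downward shift of a C-like gene (-0.16) was lost under both other scalings. In the cap-binding group (eIF4E binds the cap, eIF4G is its scaffold, eIF4B assists unwinding), both eIF4E-1 genes were higher (0.50 and 0.44), eIF4B2 was higher (0.62), and the eIF4G-like genes differed by -1.05, -0.74 and -0.20, the last with an adjusted p of 0.161 and a change of sign under quantile normalization. The eIF4G-like gene LOC107844423 fell by 1.05 ± 0.084 (adjusted p = 4.31e-10), from 0.164 to 0.718 at 20 DAA to -0.926 to 0.220 at 60 DAA. Its stages overlapped through a single A18 library at 0.220, and without the A18 60 DAA library a the difference was -0.998. Among 4 genes named only as eukaryotic translation initiation factors, with no number, LOC107853558 rose by 1.66 ± 0.059 (adjusted p = 1.28e-15) and LOC107865568 by 1.54 ± 0.077 (adjusted p = 2.8e-13).

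**Figure D2:**
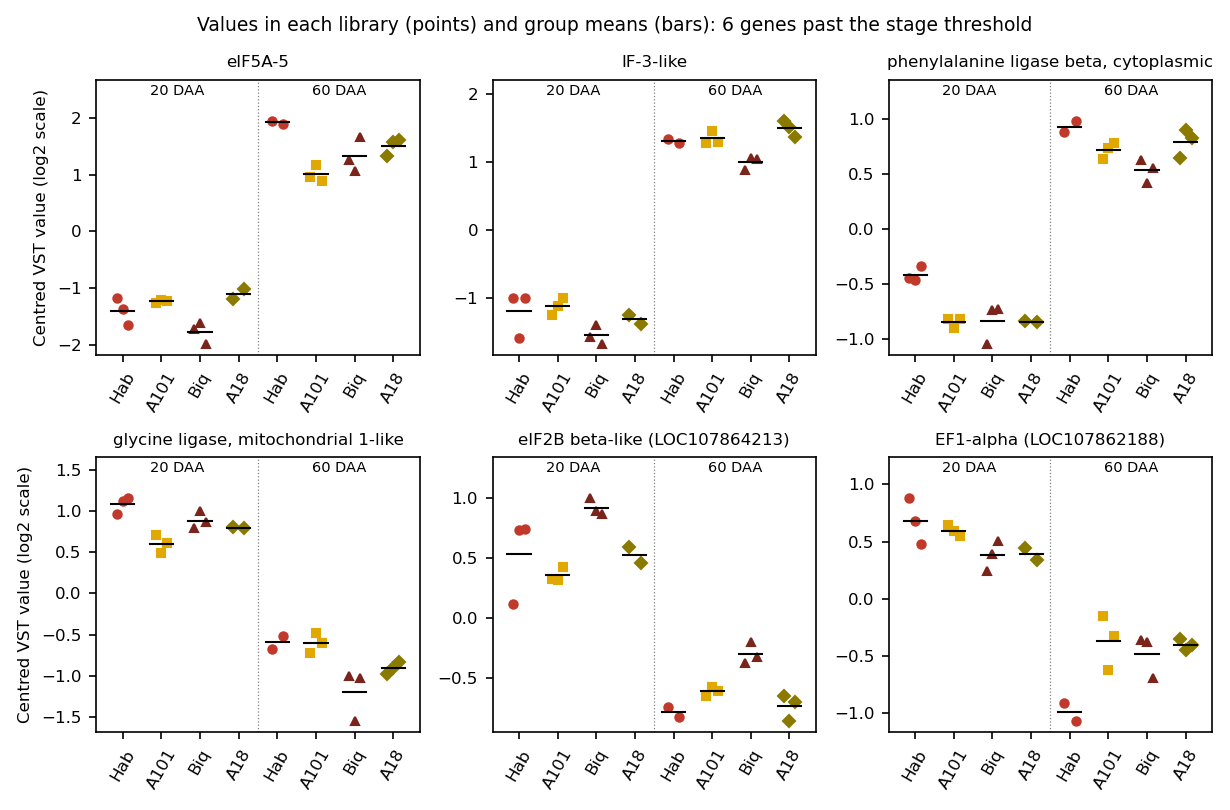
Centered variance-stabilized values (y axis, log2 scale) of 6 genes past the stage threshold in each of the 22 libraries, by accession and stage; points are libraries and bars are group means. The 60 DAA libraries of eIF5A-5, IF-3-like and the phenylalanine ligase beta gene lie above all 20 DAA libraries, and those of the glycine ligase, eIF2B beta and EF1-alpha genes lie below.

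All 9 EF1 genes shifted, 7 up and 2 down (median 0.31), where 39.9% of all genes shifted up and 46.8% down. Among them 1 EF1-alpha gene fell while the other EF1-alpha genes were higher. EF1-alpha delivers charged tRNA to the ribosome and is among the most abundant proteins of a cell. LOC107862188 fell by 1.07 ± 0.066 (adjusted p = 8.49e-12), from between 0.246 and 0.882 at 20 DAA to between -1.07 and -0.148 at 60 DAA, without overlap. The 4 other EF1-alpha genes were all higher at 60 DAA, by 0.80, 0.61, 0.31 and 0.23. Of the other EF1 subunits, whose complex recharges EF1-alpha with GTP, EF1-delta LOC107843461 was higher by 0.95 ± 0.061 (adjusted p = 1.51e-11). EF1-gamma was higher by 0.54 and the second EF1-delta gene by 0.30. EF1-beta was lower by 0.12 (adjusted p = 0.0497), a shift lost under both other scalings.

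The EF2 genes, whose product moves the ribosome by a codon, gave no rise or fall, and for 1 of them a single library decided the outcome. In LOC107839000 the Hab 20 DAA libraries stood at 0.947, 1.03 and -4.70, the last being 5.65 below the nearest of its group, and no other gene of the 118 had a library more than 2 units from the rest of its group. The other 8 libraries of 20 DAA lay between 0.427 and 0.798. With all libraries the average difference was -0.36 ± 0.48 (adjusted p = 0.485) and that of Hab was 0.79 (adjusted p = 0.478). Without that library they were -0.83 ± 0.095 (adjusted p = 1.87e-07) and -1.10 ± 0.21 (adjusted p = 0.000143), so the sign of the Hab difference turned and Hab fell. The same library gave 0.074 in the other EF2 gene, LOC107839002, close to the -0.061 and -0.288 of its group. That gene was higher at 60 DAA by 0.47 ± 0.075 (adjusted p = 9.76e-06).

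The 51 tRNA ligases covered all 20 amino acids, 27 of them named chloroplastic or mitochondrial and 24 named cytoplasmic or given no place. Of the 51 ligases 3 rose and 3 fell (13.2% and 21.5% of all genes). At any size 25 shifted up and 18 shifted down (39.9% and 46.8% of all genes). The organelle-named ligases had 13 up and 10 down (median 0.09), and the remaining ones 12 up and 8 down (median 0.10). Every ligase shifted up for 5 amino acids (asparagine, glutamate, glutamine, histidine and lysine), no amino acid had all its ligases shifted down, and for 10 amino acids ligases shifted in both directions.

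Glycine ligases gave the widest split. The mitochondrial 1-like gene LOC107870342 lay between 0.485 and 1.16 at 20 DAA (median 0.798) and between -1.55 and -0.476 at 60 DAA (median -0.833). It fell by 1.66 ± 0.066 (adjusted p = 6.13e-15), the largest fall of the 118 genes, and was the only one that fell in each of the 4 accessions. A second gene of the same name, LOC107862107, was higher by 0.82 ± 0.10 (adjusted p = 4.64e-07), and the chloroplastic/mitochondrial 2 gene was lower by 0.42. Phenylalanine ligase, a complex of alpha and beta subunits in the cytosol, had a beta gene (LOC107838711) that rose by 1.48 ± 0.052 (adjusted p = 8.94e-16). Its libraries went from between -1.05 and -0.338 to between 0.417 and 0.985. The alpha genes differed by 0.42 (LOC107840404) and -0.55 (LOC107848488), so subunits of the same enzyme did not share a size of change.

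For several amino acids the organelle-named and the remaining ligases went opposite ways. For cysteine the cytoplasmic gene LOC107847916 fell by 1.03 ± 0.064 (adjusted p = 8.14e-12), with 20 DAA libraries from 0.265 to 0.810 and 60 DAA libraries from -0.720 to -0.300, while the organelle gene was higher by 0.84. Proline ligases showed the same order, with the organelle gene higher by 0.89 and the cytoplasmic genes lower by 0.45 and 0.29. For alanine and arginine it was turned: organelle genes were lower by 0.58 and 0.79, and the others were higher by 0.69, 0.42 and 0.42. These 4 amino acids were the only ones for which all organelle-named ligases shifted one way and all the others the opposite way. The organelle ligases of lysine (LOC107880061, 1.11 ± 0.052, adjusted p = 9.73e-14) and glutamate (LOC107840658, 1.07 ± 0.056, adjusted p = 6.42e-13) rose, and that of tryptophan (LOC107850645) fell by 1.05 ± 0.058 (adjusted p = 1.35e-12). None of these 3 had overlapping stages.

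**Figure D3:**
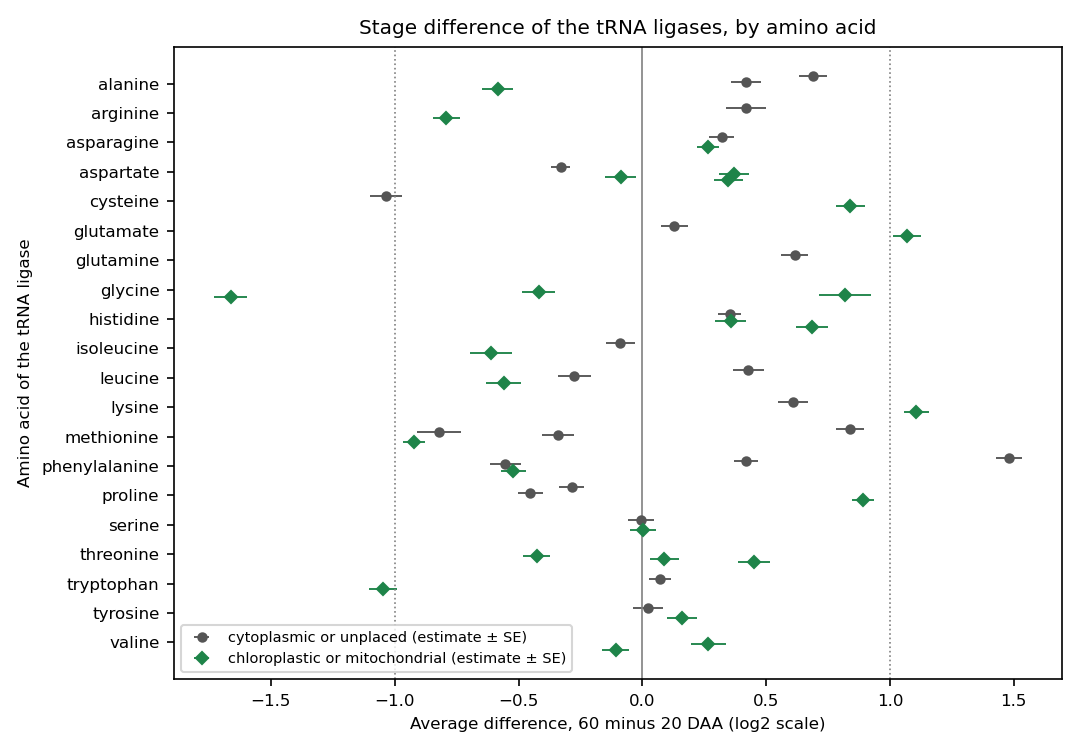
Average difference between 60 and 20 DAA (x axis, log2 scale, estimate ± SE) of the 51 tRNA ligases by amino acid (y axis); diamonds are genes named chloroplastic or mitochondrial and circles the rest. The glycine genes reach from -1.66 to 0.82, and the cysteine genes lie on opposite sides of 0.

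Each accession was then compared between its own stages. Hab had 20 rises and 15 falls (18.7% and 26% of all genes). Biq had 16 rises and 5 falls (15.5% and 23.3%), A18 had 15 and 3 (11.4% and 20.6%), and A101 had 12 and 2 (10.6% and 19.7%). The order of the accessions depended on the scaling: under quantile normalization A18 had 28 rises and 2 falls and Hab 20 and 6. Altogether 44 genes rose or fell in at least 1 accession (56.1% of all genes), and 0 rose in one and fell in another (0.479% of all genes). In all 4 accessions 9 genes rose and 1 fell (6.7% and 13.5% of all genes). The 9 were eIF5A-5, eIF5A-4 (LOC107840872), IF-3-like, both eIF1A genes, eIF6-2, eIF2 gamma (LOC107880050), LOC107853558 and the phenylalanine ligase beta gene. Hab alone accounted for 7 rises and 9 falls (4.64% and 4.03% of all genes), Biq alone for 3 rises and 1 fall (1.73% and 1.89%), A18 alone for 3 rises and 0 falls (0.656% and 0.845%), and A101 alone for 0 of either (0.768% and 0.881%). A gene past the threshold in a single accession is not thereby shown to differ from the others, and the dependence on color and pungency was tested separately.

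The largest fall in Hab was that of a probable methionine ligase (LOC107873218), from 0.868, 0.328 and 0.433 at 20 DAA to -1.27 and -1.13 at 60 DAA (difference -1.74 ± 0.19, adjusted p = 7.47e-08). In Biq it went from 0.147, 0.387 and 0.556 to -0.459, -0.588 and -0.626 (-0.92). The yellow accessions overlapped between stages, with differences of -0.33 in A101 and -0.29 in A18 that did not pass the test. In A101 the largest fall was that of the eIF4G-like gene LOC107844423 (-1.27 ± 0.16, adjusted p = 6.94e-07), and in Biq (-2.07 ± 0.12, adjusted p = 1.39e-11) and A18 (-1.70 ± 0.14, adjusted p = 1.95e-09) it was that of the glycine ligase LOC107870342.

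**Figure D4:**
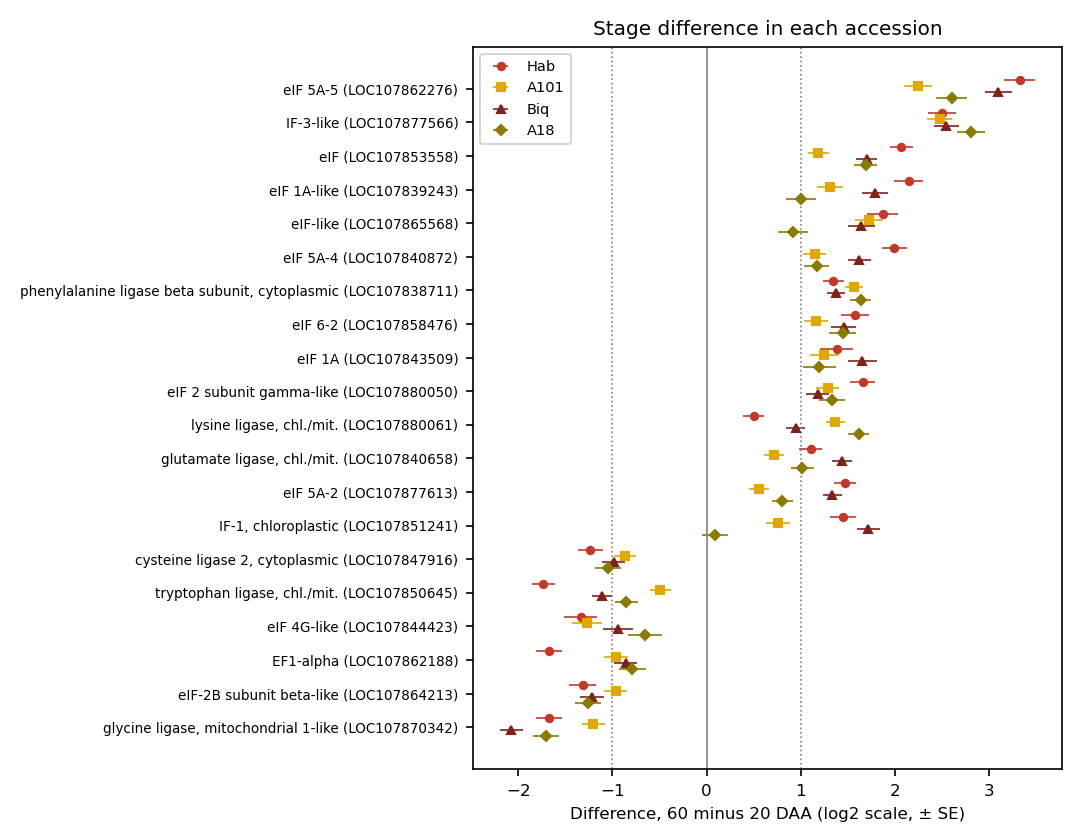
Difference between 60 and 20 DAA (x axis, log2 scale, ± SE) in each accession for the 20 genes that rose or fell on average, in order of the average. All 4 accessions lie on the same side of 0 for each gene, and IF-1 in A18 lies at 0.09.

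Whether the stage difference itself depended on fruit color was tested as red (Hab, Biq) minus yellow (A101, A18). It passed for 1 gene upward and 1 downward, where 6.38% and 4.63% of all genes passed. By the adjusted p alone 25 of the 118 genes had a more positive stage difference in red fruit and 35 a more negative one (all genes 29.6% and 25.1%). Under quantile normalization these counts were 15 and 37, and 11 genes changed the sign of the red minus yellow value. IF-1 (LOC107851241) gave the largest positive value. In Biq it went from -1.40, -1.26 and -1.58 at 20 DAA to 0.164, 0.259 and 0.491 at 60 DAA, and in Hab from -0.144, -0.417 and -0.620 to 1.20 and 0.914. A101 went from -0.078, -0.111 and -0.232 to 0.742, 0.587 and 0.523, and A18 from 0.199 and 0.074 to values between 0.194 and 0.263. A18 thus barely moved, and Biq began lowest. The red minus yellow difference was 1.16 ± 0.13 (adjusted p = 1.25e-06). The probable methionine ligase LOC107873218 gave the largest negative value, -1.02 ± 0.18 (adjusted p = 0.000111), and all 4 accessions had negative values. Both calls were lost under quantile normalization (0.996 and -0.81) and when the difference was tested against 1 in place of 0. That of the methionine ligase was also lost when any of 7 libraries was left out (at 20 DAA the b library of A18 or A101, the a library of Hab or the c library of Biq, and at 60 DAA the a library of A18 or Hab or the c library of A101, giving -0.99 to -0.93).

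Below the size threshold, the 3 eIF5A genes that rose all had a more positive stage difference in red fruit (eIF5A-5 0.79, eIF5A-2 0.72, eIF5A-4 LOC107840872 0.65), as did eIF1A-like LOC107839243 (0.81). Of the 27 organelle-named ligases, 15 had a more negative stage difference in red fruit and 1 a more positive one by the adjusted p. Their median was -0.36, and the shares of all genes were 25.1% and 29.6%. Of the 24 other ligases, 7 were more negative and 2 more positive (median -0.15). For glycine ligase chloroplastic/mitochondrial 2 (LOC107845328) the value was -0.93 ± 0.13 (adjusted p = 1.41e-05), with stage differences of -1.07 (Hab) and -0.70 (Biq) in red fruit and of 0.04 (A101) and 0.05 (A18) in yellow fruit.

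For pungency (Hab and A101 minus Biq and A18), limma called 0 of the 118 genes in either direction, where 1.65% of all genes had a more positive and 1.8% a more negative stage difference. By the adjusted p alone 7 were more positive and 17 more negative (all genes 11.2% and 10.8%). The most negative was the EF1-alpha-like gene LOC107847447 (-0.72 ± 0.24, adjusted p = 0.0404), and the next was the organelle cysteine ligase LOC107860455 (-0.62 ± 0.12, adjusted p = 0.00109).

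More genes differed among accessions in ripe than in immature fruit; whether the ranges themselves changed was not tested. At 20 DAA 3 of the 118 genes differed among accessions with a range of group means of at least 1 (15.9% of all genes), and 67 passed the adjusted p alone (53.9% of all genes). At 60 DAA 28 did so (30.2% of all genes), and 103 passed the adjusted p alone (78.3% of all genes). Under quantile normalization the counts past the threshold were 6 at 20 DAA and 17 at 60 DAA. The median range over the 118 genes was 0.40 at 20 DAA and 0.64 at 60 DAA (all genes 0.46 and 0.72). The 28 genes were 8 organelle-named ligases, 5 other ligases, 4 eIF4 genes, 4 EF1 genes, 2 IF-2 genes, 2 unnumbered factors, and 1 each of eIF2, eIF5 and EF2, with none of eIF3, eIF2B or eIF5A. Hab held the highest mean in 12 and the lowest in 10 of them. A101 was highest in 7 and lowest in 11, A18 was highest in 6 and lowest in 1, and Biq was highest in 3 and lowest in 6. These orders were not counted over all genes, and Hab had only 2 libraries at 60 DAA, so no trait of the translation genes is read from them.

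Reads of all accessions were quantified on a red-fruited *C. annuum* reference. The study names a potential bias from it in grouping genes by fruit color, and its part in differences between accessions was not tested. The widest range at both stages was in the eIF4G-like gene LOC107860730. At 20 DAA the Biq libraries gave 1.59, 1.89 and 2.24, those of A18 0.437 and 0.240, those of Hab 0.579, -0.036 and 0.152, and those of A101 -1.10, -1.02 and -1.31. Biq was above and A101 below all others, whereas A18 and Hab overlapped. The range of means was 3.05 (limma F test, adjusted p = 1.18e-08). At 60 DAA Biq (0.897, 0.984, 0.718) and A18 (0.958, -0.031, 0.053) overlapped, and Hab (-1.07, -1.26) and A101 (-1.77, -1.70, -1.44) were lower, a range of 2.50 (adjusted p = 2.03e-08). The A18 library at 0.958 stood apart from the 2 others of its group.

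The other 3 of the widest ranges at 60 DAA had narrower ranges at 20 DAA. IF-2 chloroplastic-like (LOC107878523) had 60 DAA values of 0.946, 0.724 and 0.716 in A101, 0.512, 0.224 and 0.048 in A18, -0.710, -0.489 and -0.773 in Biq, and -1.14 and -1.10 in Hab. These 4 groups did not overlap; the range was 1.92 (adjusted p = 2.05e-09), against 0.62 at 20 DAA. Its stage difference was positive in A101 (0.46) and negative in Hab (-0.89) and Biq (-0.64), each by the adjusted p. EF1-delta LOC107856716 reached 0.857, 0.527 and 1.03 in Biq at 60 DAA but -0.927 and -0.916 in Hab (range 1.73, adjusted p = 6.66e-09). A101 (0.339, 0.521, 0.409) and A18 (0.068, 0.129, 0.186) lay between them. For EF1-alpha-like LOC107847447 the A18 libraries were highest (0.752, 1.16, 1.20), then Hab (0.426, 0.384), and Biq (-0.262, -0.529, 0.182) overlapped A101 (-0.801, -0.335, -0.533), a range of 1.59 (adjusted p = 2.96e-05).

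At 20 DAA the remaining genes past the threshold were IF-1, lowest in Biq (range 1.55, adjusted p = 4.8e-08), and an organelle aspartate ligase (LOC107879482). The aspartate ligase was low in Hab (-0.873, -1.11, -0.841) and A18 (-0.660, -0.818) and high in A101 (0.440, 0.151, 0.427) and Biq (0.355, 0.308, 0.617), a range of 1.37 (adjusted p = 4.38e-09). At 60 DAA A18 had joined the high accessions (0.432, 0.661, 0.319) and Hab remained low (-0.572, -0.596). In A18 this gene rose by 1.21 ± 0.13 (adjusted p = 6.13e-08), while the differences in the other accessions lay between -0.28 and 0.36.

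**Figure D5:**
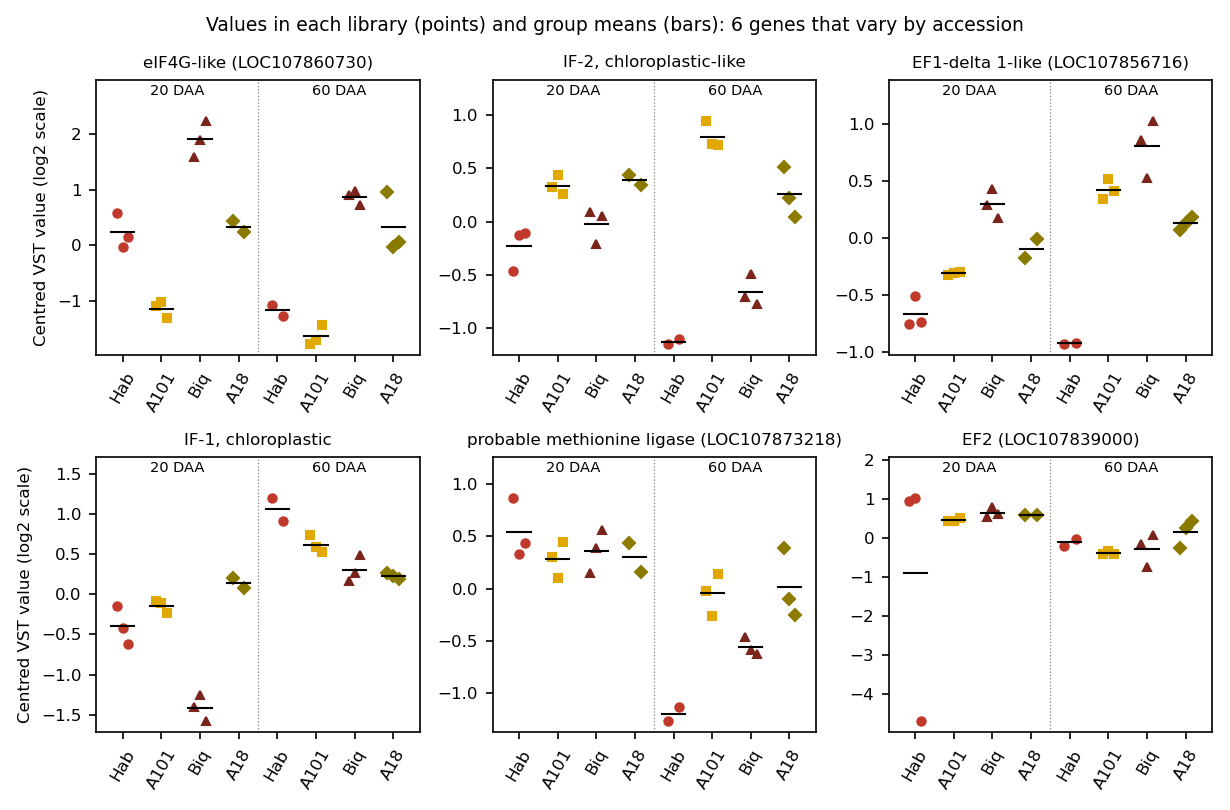
Centered variance-stabilized values (y axis, log2 scale) of 6 genes that vary by accession in each of the 22 libraries; points are libraries and bars are group means. In EF2 a single Hab library at 20 DAA lies at -4.70, and in the eIF4G-like gene Biq is highest at 20 DAA.

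Other genes of translation, taken by name, gave the surroundings of these results, to be read against the 13.2% of all genes that rose, the 21.5% that fell, and the 39.9% and 46.8% that shifted up and down. Of 206 cytosolic ribosomal protein genes 13 rose and 6 fell, with 133 shifted up and 42 down (median 0.36). Of 89 organelle-type ribosomal protein genes 7 rose and 5 fell, with 61 shifted up and 16 down (median 0.38). Release and recycling factors (14 genes) had 3 rises and no fall (median 0.43), polyadenylate-binding protein genes (15) had 2 rises and 3 falls (median 0.27), tRNA-modifying enzymes (39) had 4 rises and 2 falls (median -0.07), and organelle elongation factors (7) had no rise and 1 fall (median 0.04).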

How the data were processed

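Pericarp RNA-seq libraries of 4 accessions at 20 and 60 DAA were analyzed (22 libraries). According to the submitters' processing notes and the study's methods, the authors used fastp 0.23.1 for trimming and Salmon 1.6.0 for quantification on the *C. annuum* Zunla-1 reference, filtered low counts and transformed them with DESeq2 1.36.0. In the deposited table each value is a variance-stabilized count on a log2-like scale, centered per gene, so depth is unknown and no counting interval is given. Groups came from the sample labels; plants were grown in randomized blocks, which the labels do not assign. Replicate numbers are not part of the column names, so libraries of a group are lettered a, b and c by column order.

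A group-means model was fitted to all 16922 genes with limma 3.58.1 in R 4.3.3 (22 libraries, empirical Bayes), and p-values were adjusted by Benjamini-Hochberg over all genes. Contrasts were the stage difference on average and per accession, its difference by color and by pungency, and F tests among accessions within each stage. The threshold was an adjusted p below 0.05 with a difference, or range of means, of at least 1. P-values rest on the spread between plants within groups, pooled over the 8 groups and moderated over all genes. Block differences were not fitted and are part of that spread. Genes named were, per role, up to 3 largest rises and falls (or the largest difference if none passed), the largest rise and fall per accession, up to 4 per color, pungency and accession test, and genes with a library over 2 from its group. Other values are given for context, chosen after they were seen. The members and lists were chosen with earlier results of these data known. On simulated data with 16922 genes, differences of 1.5 were called in 98% of changed genes for the average stage contrast and differences of 0.5 in 2%. The alternatives tried were robust empirical Bayes, array weights, removal of each library's median, quantile normalization, a test against a difference of 1 (treat), leaving out genes with tied lowest values, fitting only the libraries compared, and leaving out each library.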

Additional observations from a re-analysis of the deposited data

Results flagged for a closer look

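In 2 genes the stage difference itself differed between red and yellow accessions by the adjusted p and by at least 1. In IF-1 (LOC107851241) it was 1.16 more positive in red fruit (adjusted p = 1.25e-06), from stage differences of 1.72 (Biq) and 1.45 (Hab) in red fruit and 0.76 (A101) and 0.09 (A18) in yellow fruit. In the probable methionine ligase (LOC107873218) it was -1.02 (adjusted p = 0.000111), from -1.74 (Hab), -0.92 (Biq), -0.33 (A101) and -0.29 (A18). By the same rule 6.38% of all genes were more positive in red fruit and 4.63% more negative. The adjusted p alone was passed by 25 of the 118 genes upward and 35 downward. Both calls were lost under quantile normalization and when the difference was tested against 1. That of the methionine ligase was also lost with library medians subtracted (-0.995). Each color is represented by 2 accessions, so color and other differences between accessions cannot be told apart.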

How the results depend on the processing

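No paired analysis was possible because the column names carry no replicate numbers; the blocks of the study's randomized block design were therefore not part of the fit. No named value past the threshold changed direction under the alternatives run; the stage difference of the EF2 gene LOC107839000 in Hab turned with 1 library, as given with the results. Under quantile normalization the average falls numbered 1 in place of 6, the genes past the threshold 25 in place of 14 in A101 and 30 in place of 18 in A18, 1 in place of 2 by color, 6 in place of 3 among accessions at 20 DAA and 17 in place of 28 at 60 DAA. Rises and falls then split 20 to 6 in Hab, 23 to 2 in A101, 20 to 2 in Biq and 28 to 2 in A18, and 7 genes changed the sign of the average difference, none of which had passed the threshold. With library medians subtracted, the average falls were 2 and the color calls 1. Tested against a difference of 1 (treat), the average falls were 2, with 18 genes in Hab, 5 in A101, 8 in A18 and 0 by color. The average rises of the organelle lysine and glutamate ligases, eIF5A-2 and IF-1 also failed that test. Leaving out single libraries gave 13 to 14 average rises, 5 to 6 falls and 1 to 3 color calls. For named genes, 864 leave-one-out values kept their side of the threshold and 16 did not; under the other alternatives 223 kept it, 24 lost it and 1 gained it (eIF3 subunit H). The falls of the cysteine and tryptophan ligases, eIF4G-like LOC107844423 and EF1-alpha LOC107862188 lay close to -1 and lost the size threshold under both other scalings, and that of eIF2B beta LOC107864213 (-0.9998) under quantile normalization. The cause of these changes was not tested. Groups of 2 or 3 libraries limit the precision of single-accession values.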
